A study of Mus musculus with 4 samples.

Results

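Genes that B cells use for their antigen receptor, its signaling chain and the germinal center reaction were followed in Peyer's patches and intestinal epithelial cells of germ-free (GF) mice, with and without the gut strain Lactobacillus NK318.1. The set holds 37 genes of the 18193 that the arrays could name, chosen by symbol, and each was read from the probe sets annotated to it. Of the 37, 35 had at least 1 probe set naming no other gene, 64 probe sets in all of 45037 on the array, and 1 more that names Borcs8 and Mef2b together was left out. Lyn and Cd38 are not in the table of probe genes used here and have no value. 4 Affymetrix arrays were available, 1 for each group. The GF-PP and GF-IEC arrays held total RNA of Peyer's patch cells and intestinal epithelial cells of C57BL/6 GF mice. The NK318.1-PP and NK318-IEC arrays held the same cells of C57BL/6 GF mice monocolonized with 100000000 bacteria of L.NK318.1 and sampled 2 weeks later. All groups were kept in vinyl isolators in a gnotobiotic facility. The study describes its array samples of both tissues as pooled, so the spread between mice was not measured. The age of the arrayed mice is not given in the labels.

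Peyer's patches are B cell follicles below a specialised epithelium, and in conventional mice they carry standing germinal centers driven by gut bacteria. In the germinal center, B cells that have bound antigen divide, mutate their immunoglobulin genes and compete for help from follicular T cells, and the survivors leave as memory or plasma cells, many making IgA. The B cell receptor signals through CD79A and CD79B to the kinases SYK, LYN, BLK and BTK, and a small set of transcription factors (EBF1, PAX5, the octamer factor OCT2 with its partner OBF-1, BCL6) keeps the cell in its fate.

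The promoters of the members were searched for 3 short DNA motifs. The octamer and the EBF1 motif are read by factors that members encode, whereas PU.1 is not encoded by a member. Motifs of other member factors, PAX5 and BCL6 among them, were not searched. RefSeq sequences (build GRCm38.p6, 250 bases before to 50 after each start site) were on hand for 29 of the 37 genes, as 37 promoters. The octamer read by OCT2 (Pou2f2) and OBF-1 (Pou2af1), ATGCAAAT on either strand, was in 3 of the 37 promoters (8.11%) and in 1.74% of all 32851 promoters. The EBF1 motif, TCCC and GGGA with any 2 bases between them, was in 1 (2.70%, against 0.904% of all). The motif GAGGAAGT of PU.1, which acts in B cells and myeloid cells, was in 3 (8.11%, against 3.20% of all). No member promoter held more than 1 of these motifs. A match of letters is not a bound site, and no binding was measured. The matches are shown with the motif in capitals and 25 flanking bases on each side, fewer where the start site came first, written along the strand of the gene.
Vpreb3, octamer, chr10:75948230-75948287, plus strand: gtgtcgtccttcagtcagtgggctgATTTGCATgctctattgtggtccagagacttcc
Blnk, octamer, chr19:40994319-40994376, minus strand: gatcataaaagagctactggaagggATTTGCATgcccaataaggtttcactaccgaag
Mef2b, octamer, chr8:70152651-70152708, plus strand: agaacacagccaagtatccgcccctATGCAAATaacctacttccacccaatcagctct
Cd22, EBF1, chr7:30879043-30879102, minus strand: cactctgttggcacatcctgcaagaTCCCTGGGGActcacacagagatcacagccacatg
Cd72, PU.1, chr4:43454643-43454700, minus strand: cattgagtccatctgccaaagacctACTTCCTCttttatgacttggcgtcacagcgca
Cd37, PU.1, chr7:45238840-45238889, minus strand: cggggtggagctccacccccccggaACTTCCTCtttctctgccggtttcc
Fcrl1, PU.1, chr3:87376347-87376386, plus strand: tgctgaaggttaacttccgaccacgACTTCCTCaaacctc

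The values are linear signal intensities per probe set. Median signals of the 4 arrays ran from 23.0 to 23.3. Signals under 15.5, the floor, were raised to it, a gene counted as measured in a comparison when either array lay above the floor, and a ratio against a floored signal is a bound. The number of arrays limits the precision: with 1 array per group there was no test, no p-value and no error, and each log2 ratio sets the colonized signal of a tissue over its GF signal unless stated otherwise. The colonized pools differed from the GF pools in sex-linked transcripts. In Peyer's patch Xist, the RNA of the inactive X chromosome, had 21.7 in GF mice and 4586 after colonization, and Y-linked Eif2s3y had 300.1 and then a signal under the floor. Epithelial Xist likewise had 46.7 and 4889, so colonization and sex cannot be told apart. Of the members, Btk alone lies on the X chromosome.

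In the Peyer's patch the differences between the arrays were small for most members, and a few members stood lower. None of the 35 measured members differed 2-fold, where 0.573% of the 12736 measured genes were at least 2-fold lower and 0.149% at least 2-fold higher in the colonized array. Most members lay slightly below 0, with 31 of 35 (88.6%) there against 57.2% of all measured genes, and the median log2 ratio was −0.13 (range −0.75 to 0.46) against −0.033 for all genes. Some of the members below 0 lay so near it that quantile normalization turned them just above it. At 1.5-fold, 5 members (14.3%) were lower, Pax5, Vpreb3, Btk, Cd83 and Blk, where 2.74% of all genes were. Vpreb3, Btk, Cd83 and Blk were each read by a single probe set, and another probe set of Pax5 gave 0.24. None was higher at 1.5-fold, where 0.927% of all genes were. Among genes with a mean Peyer's patch signal above 100, a limit chosen after the data were seen, 4 of 33 members and 2.31% of 6350 genes were 1.5-fold lower. The median of these 33 members was −0.078 against −0.047 for the 6350 genes, and 87.9% against 61.4% lay below 0. In RNA of whole tissue, fewer cells of a type and less RNA per cell cannot be told apart.

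**Figure D1:**
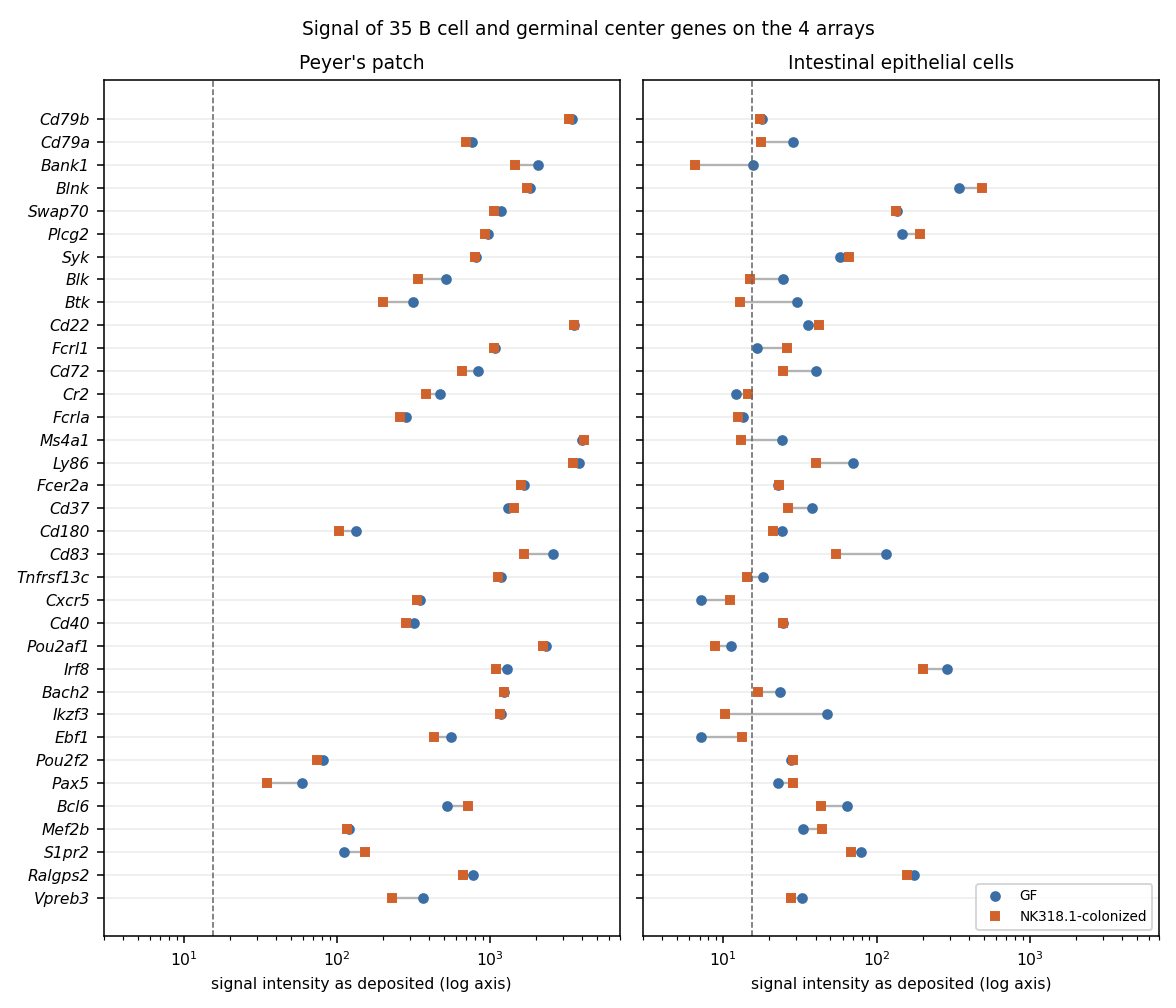
Signal intensity (log axis, as deposited) of the 35 members with a probe set, on the GF array (blue circles) and the NK318.1-colonized array (orange squares) of each tissue, 1 pooled array per group; dashed line, floor of 15.5. In the Peyer's patch all members lie above the floor on both arrays, from 35.1 to 4097, whereas in epithelial cells 19 of 35 stay below 2 times the floor on both.

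The receptor itself was nearly level between the arrays. Cd79b, the β signaling chain of the B cell receptor, had a signal of 3443 in Peyer's patch of GF mice and 3270 after colonization (log2 ratio −0.074). Cd79a, the α chain, had 763 and 693 (−0.14). Both chains were thus slightly lower in the colonized array, well inside the central 95% of all genes, which ran from −0.60 to 0.41. The pan-B cell surface gene Ms4a1, which encodes CD20, had 3969 and 4097 (0.046, and 0.058 from another probe set). Ms4a1 and the genes of the receptor chains therefore give ratios on either side of 0 that differ by less than 0.2 on the log2 scale. Cd37, a tetraspanin of mature B cells, had 1299 and 1422 (0.13), but another probe set gave −0.15.

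Among the kinases and adaptors behind the receptor, 3 stood lower and 4 level. Btk, the kinase that activates phospholipase C, had 313 in GF and 199 in colonized Peyer's patch (−0.65). Blk, a SRC-family kinase of B cells, had 517 and 337 (−0.62), and Bank1, a scaffold for LYN and the calcium response, 2067 and 1455 (−0.51). Each of these was read by a single probe set, so no second probe set bears on them. Syk, the kinase that docks on the phosphorylated receptor chains, had 813 and 793 (−0.034), while its 3 other probe sets ran from −0.27 to 0.13. Blnk, the adaptor that SYK phosphorylates, had 1818 and 1734 (−0.068) and Plcg2, the phospholipase at the end of the chain, 969 and 922 (−0.073). Swap70, a signaling protein of activated B cells, had 1177 and 1063 (−0.15, and 0.062 from another probe set). Transcripts of Btk, Blk and Bank1 were thus lower. By the probe sets that stand for them, Syk, Blnk and Plcg2 differed by less than 0.1 on the log2 scale.

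The co-receptors and inhibitors spread over a narrower range. Cr2, complement receptor 2, which lowers the threshold for antigen and is also carried by follicular dendritic cells, had 470 and 382 (−0.30). Cd72, an inhibitory lectin, had 832 and 657 (−0.34). Both were lower, whereas Cd22, the inhibitory sialic acid-binding receptor, was level at 3521 and 3511 (−0.0043, and −0.18 from another probe set). Fcrl1, an activating Fc receptor-like protein, had 1083 and 1068 (−0.019), and Fcrla, an intracellular relative, 284 and 258 (−0.14). Of the other surface genes, Fcer2a, the low-affinity IgE receptor CD23 of resting follicular B cells, had 1663 and 1597 (−0.058). Ly86 (MD-1) had 3780 and 3463 (−0.13) and Cd180 (RP105), the toll-like receptor homolog it pairs with, 134 and 104 (−0.37). Fcer2a, the gene of the resting B cell marker CD23, was therefore close to level, with Cd180 the lowest of this group.

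Among receptors for T cell help, survival and homing, Cd83 stood apart. Cd83, which activated B cells of the light zone and mature dendritic cells display, had 2585 in GF and 1659 in colonized Peyer's patch (−0.64), lower than all but 2.18% of measured genes. Cd40, the receptor for the helper signal of T cells, had 320 and 283 (−0.17), with −0.30 and −0.42 from its other probe sets. All probe sets of Cd40 thus gave the same direction as Cd83. Tnfrsf13c, the BAFF receptor that keeps mature B cells alive, had 1182 and 1133 (−0.062), and Cxcr5, which draws B cells and follicular helper T cells into follicles, had 349 and 331 (−0.075). The survival and homing receptors lay within 0.08 of 0.

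Of the 3 genes grouped under the germinal center, 2 were the highest of all members. Bcl6, the repressor that germinal center B cells and follicular helper T cells require, had 525 in Peyer's patch of GF mice and 721 after colonization, a log2 ratio of 0.46, and another probe set gave 0.33. S1pr2, the receptor that confines B cells to the germinal center, had 112 and 153 (0.45), and its other probe set, at 102 and 165, gave 0.70. Both probe sets of both genes were higher in the colonized array, and 98.2% of measured genes had a lower ratio than either gene. Mef2b, a transcription factor that activates Bcl6, had 121 and 117 (−0.042). Of 38 further genes of germinal center B cells 31 were measured, with a median of −0.083 and 17 below 0. 1 of them was at least 2-fold lower, Gcsam, a germinal center signaling protein, with 169 and 79.4 (−1.09, and −0.71 from another probe set). At 1.5-fold 4 genes of this list were lower and 2 higher. Besides Gcsam the lower genes were Cd93 with 56.5 and 35.7 (−0.66, other probe set −1.20), the mitotic kinase Nek2 with 119.7 and 76.3 (−0.65, other probe set −0.22) and Cxcr4, the receptor that holds B cells in the dark zone, with 1294 and 851 (−0.60). The higher genes were Mybl1, a transcription factor of germinal center B cells, with 116 and 181 (0.65), and Efnb1, an ephrin, with 92.8 and 146 (0.65). Rgs13, a G protein regulator, had 576 and 710 (0.30). Germinal center genes therefore differed in both directions.

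**Figure D2:**
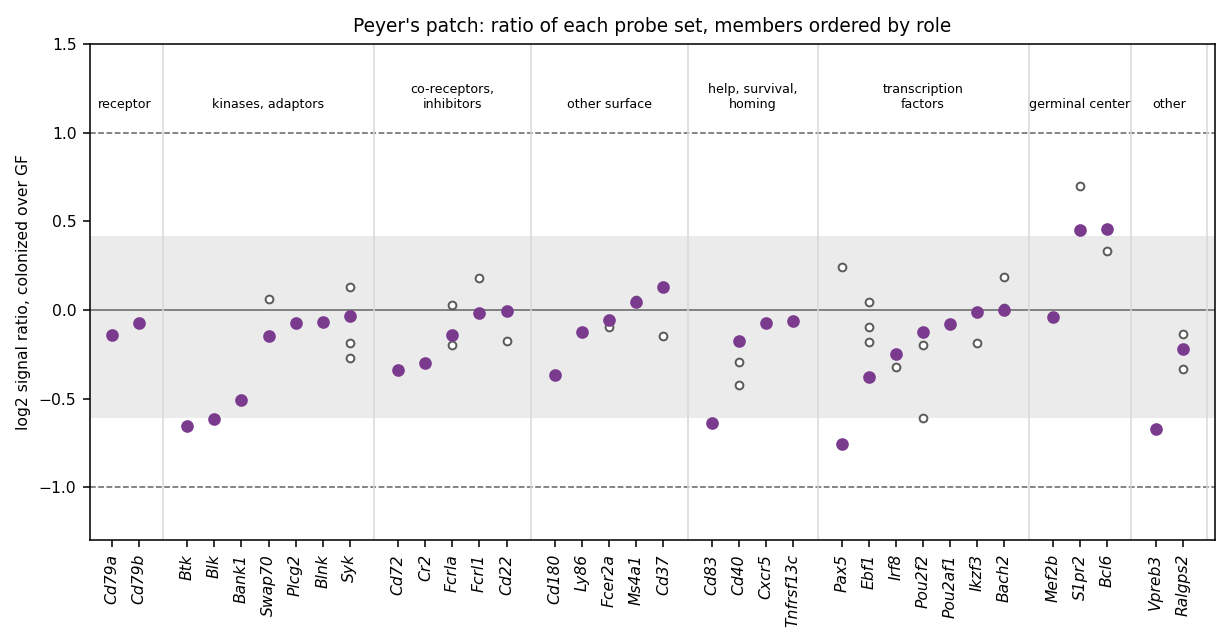
Log2 signal ratio, colonized over GF, of every measured probe set of the 35 members in the Peyer's patch arrays, by role. Filled circles, the probe set that stands for the gene; open circles, its other probe sets; grey band, central 95% of 12736 measured genes (−0.60 to 0.41); dashed lines, 2-fold. Bcl6 and S1pr2 lie above the band with their representative probe sets, and Btk, Blk, Cd83, Pax5 and Vpreb3 below it.

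The transcription factors were led by Pax5 at the low end, but its probe sets disagreed. Pax5, which commits cells to the B lineage, had 59.2 in GF and 35.1 in colonized Peyer's patch (−0.75), while another probe set had 72.5 and 85.8 (0.24), so the array gives no settled direction for it. Ebf1, the factor that works with PAX5, had 556 and 428 (−0.38), and 3 other measured probe sets ran from −0.18 to 0.044. Pou2af1, the OBF-1 partner of octamer factors, had 2329 and 2207 (−0.078), and Pou2f2, which encodes OCT2, 80.8 and 74.1 (−0.13, with −0.61 and −0.20 from other probe sets). Bach2, which holds B cells back from the plasma cell fate, had 1237 and 1236 (−0.0014). Ikzf3, Aiolos, a lymphocyte zinc finger factor, had 1170 and 1158 (−0.014). Irf8, an interferon regulatory factor of B cells and dendritic cells, had 1291 and 1088 (−0.25, and −0.32 from another probe set). By the probe sets that stand for the genes, Pou2af1, Bach2 and Ikzf3 lay within 0.1 of 0, while Ebf1 and Irf8 were lower. Vpreb3, a protein that handles immunoglobulin light chains, had 365 and 230 (−0.67), and Ralgps2, an exchange factor, 774 and 665 (−0.22, other probe sets −0.33 and −0.13). The genes with the octamer shown earlier, Vpreb3, Blnk and Mef2b, gave −0.67, −0.068 and −0.042.

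Where a member had several probe sets above the floor on both Peyer's patch arrays, they gave 1 direction for 10 of 18 genes and mixed directions for 8 (Bach2, Cd37, Ebf1, Fcrl1, Fcrla, Pax5, Swap70 and Syk). Of all 63 such probe sets 48 lay below 0.

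Many of the members also work in other leukocytes, and 18 were marked as such from general knowledge (Syk, Btk, Plcg2, Irf8, Cd83 and Bcl6 among them). The 19 measured members without that mark had a median of −0.078 with 17 below 0, and the 16 measured members with it a median of −0.13 with 14 below 0. Of 76 further genes of the B cell program, 62 were measured, none differed 2-fold, and their median was −0.078 with 42 below 0. The highest were Pik3cd, a lipid kinase subunit, with 1510 and 2332 (0.63, although 3 other probe sets ran from −0.21 to 0.086) and the costimulator Cd86 with 206 and 296 (0.52, and 0.073 from another probe set). The lowest were Arhgap24 (−0.49) and Mzb1, a chaperone of antibody-secreting cells, with 2345 and 1714 (−0.45). The naive and follicular list had 23 measured genes and a median of −0.11, with Cd69, the activation marker, at 440.5 and 274 (−0.69) and S1pr1, the receptor for exit from the tissue, at 614 and 705 (0.20). The medians of both lists thus lay between that of the members and that of all genes.

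Lists for other cells were measured in the same arrays. T cell genes were higher, with 23 of 24 not below 0, a median of 0.23 and a summed signal of 17939 in GF and 20511 in colonized Peyer's patch; Cd3e had 527 and 585. Macrophage and monocyte genes had a median of −0.27 with 16 of 21 below 0 and a summed signal of 14711 and 12872, and dendritic cell genes −0.31 with 16 of 21 and 11428 and 8864. Of their defining markers, Adgre1, the macrophage F4/80 gene, had 85.5 and 58.6, and Itgax, which encodes CD11c, 93.9 and 65.2. Genes of follicular dendritic cells, the stromal cells that display antigen to B cells, had a median of −0.29 with 12 of 15 below 0 and a summed signal of 8267 and 6900. Among them Cxcl13, the chemokine that CXCR5 reads, had 1687 and 1374 (−0.30). Plasma cell genes had −0.31 with 21 of 22 below 0 and 25499 and 20020. Of these Prdm1, the factor that drives plasma cells, had 79.3 and 41.2 (−0.94), while Jchain was level at 4569 and 4545. Ighg3, the 1 gene of this list past 2-fold, had 2094 and 370 (−2.50), but another probe set gave −0.052. Cell cycle genes had −0.40 with 30 of 30 below 0 and 15029 and 12034, with Mki67 at 1096 and 775 (−0.50). Follicular helper T cell genes outside the members had −0.011 with 9 of 15 below 0 and 5897 and 5248. The part of these cells in the members' values was not tested. None of the markers named here was under the floor. The pan-leukocyte gene Ptprc was level at 5152 and 5235 (0.023), but another probe set gave 0.42.

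**Figure D3:**
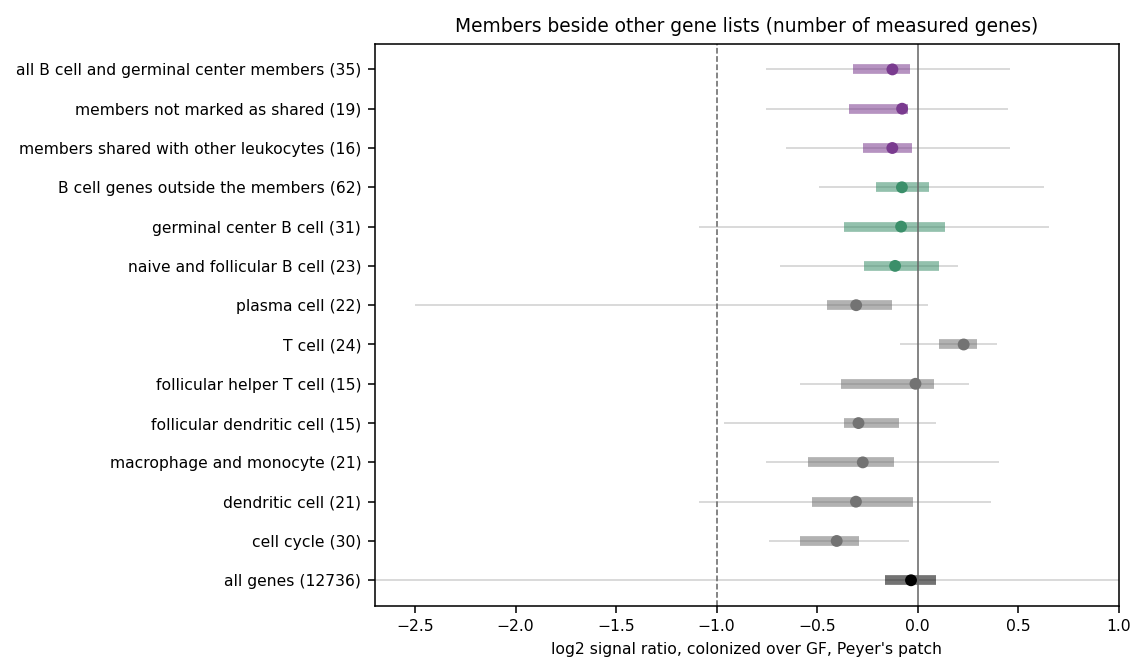
Log2 signal ratio, colonized over GF, in the Peyer's patch arrays for the members (purple), B cell lists outside the members (green) and other lists (grey), with all measured genes in black. Points, medians; thick bars, quartiles; thin lines, lowest to highest gene, cut at the edges of the plot for all genes; dashed line, 2-fold lower. The member median of −0.13 lies between all genes (−0.033) and the cell cycle list (−0.40), and the T cell list is on the other side of 0 at 0.23.

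The members were also compared between the tissues within each state. All 35 members lay above the floor on both Peyer's patch arrays. In GF mice 34 of 35 were at least 2-fold higher in Peyer's patch than in epithelial cells, where 18.5% of 14036 measured genes were, and in colonized mice again 34 of 35, where 16.8% of 14030 were. The median log2 ratio of the tissues was 4.39 in GF and 4.44 in colonized mice. T cell genes gave much the same picture, with 23 of 24 at least 2-fold higher in GF mice (median 3.93) and 24 of 24 in colonized mice (4.29), so this separation is not particular to B cell genes. Cd79b had 3443 in GF Peyer's patch and 17.8 in GF epithelial cells (7.60), and 3270 and 17.4 in colonized mice (7.55). Pou2af1, which lay under the floor on both epithelial arrays, was higher in Peyer's patch by at least 7.23 and 7.15. Ms4a1 was higher by 7.35 in GF mice and by at least 8.05 in colonized mice. Cd79b and Pou2af1 thus lay near or under the floor in epithelial cells of both states. The exceptions were S1pr2 in GF mice (112 and 79.5, 0.49) and Pax5 in colonized mice (35.1 and 28.5, 0.30). Their other probe sets did not give these exceptions: S1pr2 had 102 and 18.8 in GF mice (2.44), and Pax5 had 85.8 in colonized Peyer's patch and lay under the floor in epithelial cells (at least 2.47). Epithelial marker genes were the other way round, with Epcam at 75.9 and 57.0 in the Peyer's patch arrays and 3926 and 3623 in the epithelial arrays.

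**Figure D4:**
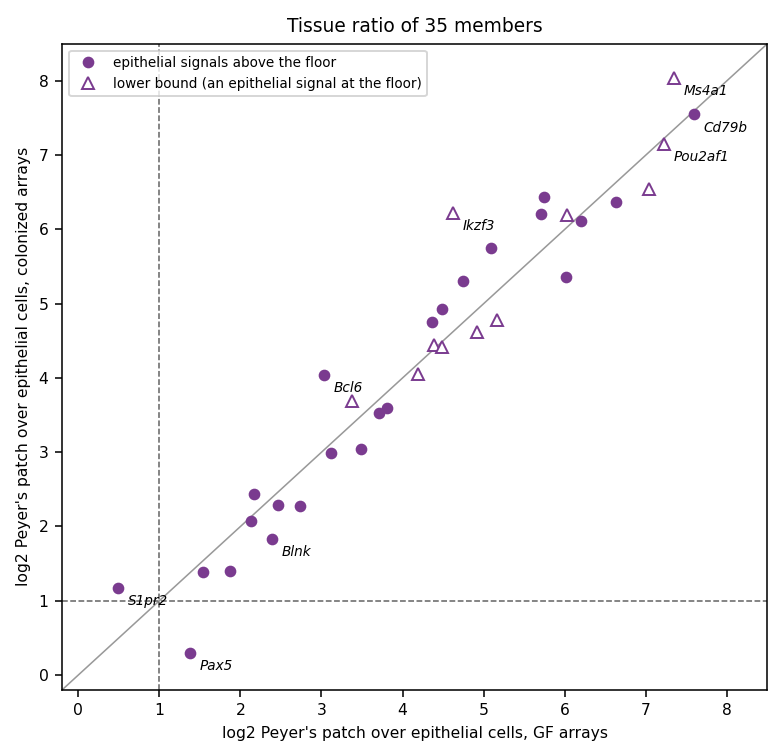
Log2 ratio of Peyer's patch over epithelial cells for the 35 members, GF arrays on the x axis and colonized arrays on the y axis; triangles, bounds where an epithelial signal lay under the floor; dashed lines, 2-fold; solid line, equal ratios. All but S1pr2 (GF) and Pax5 (colonized) lie beyond 2-fold on both axes.

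In the epithelial cells most members were near background, and a few were lower in the colonized array. Cr2, Cxcr5, Ebf1, Fcrla and Pou2af1 lay under the floor on both arrays and have no ratio, 19 of the 35 stayed under 2 times the floor, and 7 reached 5 times the floor on either array. Of the 30 measured members 2 were at least 2-fold lower, where 1.54% of 13874 measured genes were, and none was 2-fold higher, where 2.63% of genes were. At 1.5-fold 8 were lower (Blk, Btk, Cd72, Cd79a, Cd83, Ikzf3, Ly86 and Ms4a1), where 6.80% of all genes were, and 1 was higher (Fcrl1), where 9.31% were. Among the lower genes Blk, Btk, Ikzf3 and Ms4a1 give bounds, with colonized signals under the floor. Cd79a, with 28.5 and 17.6, was close to the floor. Fcrl1 had 16.6 and 26.1 (0.65), close to the floor, while its other probe set had 36.2 and 17.1 (−1.08), so it has no settled direction in epithelial cells. Epithelial Cd83 had 115 in GF mice and 54.6 after colonization (−1.08), lower as in the Peyer's patch. Ikzf3 had 47.4 in GF and lay under the floor in the colonized array, at least 3.06-fold lower, but its other probe sets gave 0.22 and, as a bound, 0.26. Ikzf3 is also active in T and NK cells. The median log2 ratio over the 30 was −0.20, with 20 below 0, and a gene with 1 signal under the floor enters only through its other array, so this median is no measure of all members.

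Apart from Cd83, the members that reached 5 times the floor in epithelial cells did not share a direction. Blnk had 348 in GF and 486 in colonized mice (0.48), and Plcg2 146 and 191 (0.39). Irf8 had 287 and 201 (−0.51), but another probe set was level at 180.2 and 178 (−0.022). Ralgps2 (177 and 158), Swap70 (135 and 134) and S1pr2 (79.5 and 67.7) differed by less than 0.3 on the log2 scale by the probe sets that stand for them. Other probe sets of Ralgps2 gave 0.44 and −0.53, and that of S1pr2 had 18.8 and then a signal under the floor. Below 5 times the floor Ly86 had 70.2 and 40.04 (−0.81) and Bcl6 64.4 and 43.7 (−0.56, other probe set −0.19). Some leukocyte transcripts were lower in the same colonized array. Ptprc had 271 and 23.1 (−3.55). Intraepithelial cytotoxic lymphocyte genes had a median of −2.05 with 9 of 13 at least 2-fold lower and a summed signal of 5843 and 569. T cell genes had −0.35 with 4 of 22 at least 2-fold lower and 1789 and 1122, although Cd3e had 230.4 and 273. Plasma cell genes had a median of −0.10 with 14 of 22 below 0, but a higher summed signal, 5193 and 6434. Among them Igha had 684 and 1727 (1.34) and Jchain 211 and 403 (0.93). The B cell genes outside the members had a median of 0.011 with 27 of 55 below 0. The B cell marker Ms4a1 had 24.3 and a signal under the floor, at least 1.56-fold lower. Epithelial genes had a median of −0.30 with 20 of 25 below 0. The part of these cells in the members' values was not tested. Of the 55 measured B cell genes outside the members, 4 were at least 2-fold lower, the leukocyte genes Ets1, Cd52, Ikzf1 and Cd53. The ratio of Ikzf1 was a bound, and another probe set gave 0.33. For Ets1, 3 other probe sets ran from −1.04 to −0.0067. The 2 genes at least 2-fold higher were Spib and Inpp5d. Spib, a transcription factor of B cells and of M cells, had 31.2 and 127 (2.03). Inpp5d, a lipid phosphatase, had 28.5 and 71.7 (1.33, and 0.12 from another probe set). Of 30 measured germinal center genes, Rgs13, which tuft cells also express, had 28.6 and 168 (2.56). Mme, a peptidase of the brush border as well, had 455 and 221 (−1.04, and −0.30 from another probe set). RNA quality moved as well. β-actin probe sets near the 3′ end of the transcript gave 2.73 times the signal of those near the 5′ end in GF epithelial cells and 4.10 times after colonization, against 1.60 and 1.74 in the Peyer's patch, and the part of this in the ratios was not tested.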

How the data were processed

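Total RNA was labelled with biotin and hybridized to 4 Affymetrix arrays, 1 per group. The study describes the samples of both tissues as pooled. The authors deposited 1 linear intensity for each probe set. The submitters' processing notes name MAS5 (version and settings: not given in the sources used here), and the methods of the study name R and limma. With 64 control probe sets set aside, 45037 remained, of which 9160 name no gene and 932 name several, and both kinds were left out of gene values. Symbols were updated through Entrez IDs to RefSeq. Each gene was represented by the probe set whose log2 intensity, averaged over all 4 arrays, was largest. For the floor, 15.5, the 40th percentile was taken on each array and the median of these used. The fold limit of 2 is that of the study's methods, without its adjusted p, which 1 array per group cannot give.

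The members and lists were chosen with earlier results of these data known. Roles and lists were written from general knowledge. All 35 listed members are reported. Of other lists, genes 2-fold apart, the 3 highest and 3 lowest per tissue and a fixed set of defining markers could be named. Alternatives were median centring, quantile normalization, other floors (25th or 60th percentile, none), averaged probe sets, dropping probe sets of lower specificity, a 1.5-fold or 4-fold limit in place of 2-fold, and omission of members shared with other leukocytes or X-linked. The background of genes with signal above 100 was chosen after seeing the data. Per gene, the ratio of 2 floored signals was computed, without a statistical test. The code for it was checked on simulated signals. Python 3.11.15, numpy 2.4.6, pandas 2.3.3 and matplotlib 3.10.9 were used.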

Additional observations from a re-analysis of the deposited data

Results flagged for a closer look

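Bcl6, Pax5 and the cell cycle list pointed opposite ways in the tissues, under a limit on the size of both ratios that was chosen after the data were seen. For Bcl6 the log2 ratio of colonized over GF was 0.46 in Peyer's patch but −0.56 in epithelial cells, a gap of 1.01, while its other probe set gave 0.33 and −0.19. Pax5 had −0.75 and 0.33, a gap of −1.08, with signals from 22.8 to 59.2 on the 4 arrays, and its other probe set gave 0.24 in Peyer's patch. The median of the cell cycle list, −0.40 and 0.41, differed by −0.81. With 1 array in each group these gaps were not tested.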

How the results depend on the processing

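No paired analysis was possible because a group is 1 array. In the Peyer's patch no member was 2-fold higher or lower under the other scalings, floors and probe set choices, and the member median ran from −0.13 to −0.089. Without members shared with other leukocytes the median there was −0.078. With the 1.5-fold limit 5 members were lower there. In epithelial cells the 2 members 2-fold lower became 8 at 1.5-fold, 4 without a floor, 1 with the floor at the 60th percentile, 1 with averaged probe sets, 0 at 4-fold and 0 without members shared with other leukocytes. Without these members the epithelial median was −0.029, and at 1.5-fold 1 member was higher, Fcrl1, which turned from 0.65 to −0.22 with averaged probe sets. The tissue median moved to 4.27 in GF mice with quantile normalization, to 3.79 in GF and 3.56 in colonized mice with the floor at the 60th percentile, to 3.81 and 3.72 with averaged probe sets, to 4.92 and 4.79 without shared members (18 of 19 higher in each) and to 4.71 in colonized mice with the lower floor or none. The cause was not tested. Quantile normalization shifted the median tissue ratio of all genes from −0.038 to −0.16 in GF mice. Ikzf3 in epithelial cells was no longer 2-fold lower with averaged probe sets (−0.39) or the higher floor (−0.35). Btk there passed 2-fold with quantile normalization (−1.02), the lower floor or none (−1.24), and Bank1 without a floor (−1.26). Under quantile normalization Syk, Cd22, Fcrl1, Ikzf3, Bach2 and Mef2b changed from just below to just above 0 in Peyer's patch (0.0031 to 0.045). The share of members below 0 was smaller under that setting. Pax5 was −0.26 there with averaged probe sets. Signal near the floor limits what the epithelial arrays can show.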
